A study of Mus musculus with 4 samples.

Results

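A set of 9 alpha- and beta-tubulin genes, together with the annotated gene *Gm49450*, whose exons coincide with those of *Tuba1a* and *Tuba1b*, makes up 10 of the 22063 genes listed in the deposited count table. It holds the 4 alpha-tubulin genes *Tuba1a*, *Tuba1b*, *Tuba1c* and *Tuba4a*, the 5 beta-tubulin genes *Tubb2a*, *Tubb2b*, *Tubb4b*, *Tubb5* and *Tubb6*, and *Gm49450*. The genes were picked by symbol with their counts, the non-whole parts of these counts and their change between the groups already known, so their values are given as a description and without a test. TKPT cells (TKPTS in the study's methods) are an established mouse line of proximal tubule epithelial cells, labelled as wild type in genotype. RNA was sequenced from 4 libraries, 2 of cells given a control siRNA (Scrambled, replicates 2 and 3) and 2 of cells given an siRNA against *Itgb6*, the integrin beta 6 subunit (Itgb6-siRNA, replicates 1 and 3). Both groups had passed through hypoxia/reoxygenation, with 24 h at 1% oxygen followed by 12 h at normal oxygen, so no library without this injury enters the comparison. The labels do not say whether the replicates of a group were separate cultures, and the spread between them may be technical. The study asked which genes of injured tubule cells respond to a lowered *Itgb6*.

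Alpha- and beta-tubulin join into the dimers from which microtubules are built, and each is encoded by several genes, the isotypes, whose proteins differ mostly in the acidic tail at the carboxyl end. The tail carries many of the modifications that proteins bound to microtubules read, such as removal of the terminal tyrosine and addition of glutamates. Cells hold tubulin mRNA in check through the free dimer, which triggers decay of tubulin mRNAs while they are being translated. In renal tubule epithelium microtubules carry vesicles between the apical and basolateral faces and form the primary cilium.

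*Gm49450* (ENSMUSG00000116358) has 1 annotated transcript of 899 bases in 4 exons, on the minus strand of chr15:98932137-98953551 in GENCODE vM21 (GRCm38). The authors' annotation may have been another. Its exons 1 to 3 hold 473 bases, all of which lie in exons 1 to 3 of *Tuba1a* (chr15:98949837-98953703, minus strand). Its exon 4 holds 426 bases, all of which lie in exon 4 of *Tuba1b* (chr15:98931425-98934565, minus strand). No base of it (0) lies outside these exons, so the single feature that is its own is the junction that skips 18625 bases from exon 3 of *Tuba1a* to exon 4 of *Tuba1b*. Around this junction the nearest base at which *Tuba1a* and *Tuba1b* differ lies 64 bases before it on one side and 51 bases after it on the other. A single read therefore had to run over at least 115 bases to hold both, and the reads were 150 bases long and sequenced in pairs. Over the exons concerned, *Tuba1a* and *Tuba1b* differ at 1 of 223 bases of exon 2, at 2 of 149 bases of exon 3 and at 13 of the first 426 bases of exon 4.

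**Figure D1:**
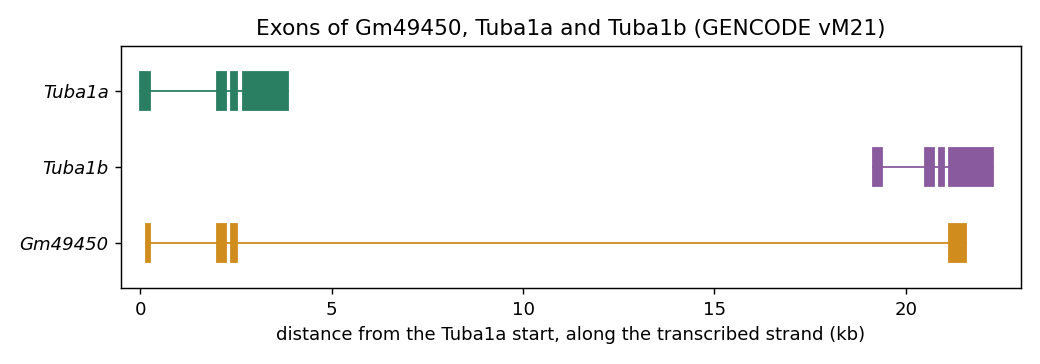
Exons (boxes) of *Tuba1a*, *Tuba1b* and *Gm49450* as annotated in GENCODE vM21, drawn to scale along the transcribed strand, with the distance from the *Tuba1a* start in kb on the horizontal axis. The first 3 *Gm49450* exons sit under *Tuba1a* exons and the fourth under the last *Tuba1b* exon.

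The paralogs themselves are close to identical. Aligned base by base, the coding sequences of *Tuba1a* and *Tuba1b* were 98.3% identical, those of *Tuba1b* and *Tuba1c* 97.9% and those of *Tuba1a* and *Tuba1c* 97.1%, with identical runs of up to 281, 468 and 446 bases. *Tuba4a* was 84.8% to 85.2% identical to these 3. Of the beta genes, *Tubb2a* and *Tubb2b* were 96.5% identical with an identical run of 551 bases, and the other beta pairs between 80.2% and 84.5%. The beta genes can be compared in the last 60 coding bases before the stop codon, which encode the isotype tails. They are printed for 4 beta genes, with capitals where a base has no identical partner in *Tubb5*, the most abundant of them. The stretch lies on the minus strand at chr17:35834985-35835044 (*Tubb5*), chr2:25222311-25222370 (*Tubb4b*), chr13:34074471-34074530 (*Tubb2a*) and chr13:34127474-34127533 (*Tubb2b*).
Tubb5: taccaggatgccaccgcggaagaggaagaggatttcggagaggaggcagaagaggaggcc
Tubb4b: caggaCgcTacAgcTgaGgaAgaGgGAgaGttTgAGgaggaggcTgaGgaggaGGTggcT
Tubb2a: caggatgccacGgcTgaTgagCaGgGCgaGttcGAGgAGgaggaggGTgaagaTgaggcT
Tubb2b: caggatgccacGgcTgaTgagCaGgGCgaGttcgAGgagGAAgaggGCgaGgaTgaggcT
The tails of *Tubb4b*, *Tubb2a* and *Tubb2b* had 19, 17 and 18 bases without an identical partner in *Tubb5*.

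How far a read can be assigned to 1 gene was measured as the share of a gene's 150-base stretches that occur in no other GENCODE transcript. This share was 4.80% for *Gm49450* (36 of 750 stretches), and of its 31-base stretches 0 of 869 were its own. It was 45.3% for *Tuba1a*, 42.1% for *Tuba1b* and 53.3% for *Tuba1c*, each of which shared stretches with 10 other annotated genes, of which 3 were in the count table. It was 72.1% for *Tubb2a*, 79.9% for *Tubb2b*, and 83.2% for *Tubb4b*. Every such stretch of *Tubb5* and of *Tubb6* was their own. *Tuba4a* (chr1:75214228-75219865) shared 1230 of 2691 stretches of its longest complete transcript with *Stk16*, a kinase gene on the opposite strand, and the libraries hold no strand information.

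The deposited counts are estimates per gene and need not be whole. In 7 of the 10 genes the estimated count was not a whole number in at least 1 library, and in 6 of these, *Tuba1a*, *Tuba1b*, *Tuba1c*, *Tuba4a*, *Tubb2a* and *Tubb2b*, in all 4. Among the genes listed, 1038 were not whole in all 4 libraries. *Tubb4b*, *Tubb5* and *Tubb6* were whole in every library. *Tubb2a* and *Tubb2b* added up to whole numbers, 2858, 3209, 2932 and 3401 counts in Scrambled replicates 2 and 3 and Itgb6-siRNA replicates 1 and 3. *Tuba4a* and *Stk16* added up to 2025, 2300, 2309 and 2368 counts in the same order. *Gm49450* did not become whole with *Tuba1a* or *Tuba1b* alone (3085.36 and 29219.2 counts in Scrambled replicate 2). With *Tuba1a*, *Tuba1b* and *Tuba1c* together it gave 34452.99, 35788, 30920.98 and 33094 counts, within 0.02 of whole numbers. Only pairs of genes not whole in all 4 libraries were searched, within 0.015 of a whole number. The sum of *Gm49450* with the 3 alpha genes was chosen by hand and judged with a wider margin. *Tuba4a* alone ended in 0.99, 0.99, 0.98 and 0.98, also within 0.02 of whole numbers. With *Tuba4a* added, that sum lay within 0.04 of whole numbers, so other sets are not excluded.

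The libraries held 15435087 to 17220285 counts each, and 11727 genes passed the filter on low counts, among them 10 of the 10 genes described here. *Itgb6*, the target of the siRNA, had 285 and 284 counts in Scrambled and 279 and 260 counts in Itgb6-siRNA. Its log2 fold change was -0.0051 with an SE of 0.13 (edgeR's quasi-likelihood test, Benjamini-Hochberg adjusted p = 0.991). The group names below therefore stand for the labels, and no direction below is tied to a loss of *Itgb6* mRNA. The study reports a check of the siRNA by qPCR and western blot, with less integrin αvβ6 protein in hypoxic cells given it. Whether the cells of these 4 libraries were so checked is not stated. Of 15 proximal tubule markers, the transporter genes *Slc34a1*, *Slc5a2* and *Slc22a6* were at 0 in all 4 libraries, while the epithelial genes *Krt8*, *Krt18*, *Cdh16*, *Epcam* and *Cdh1* had 2106 to 15012 counts. Summed over 8 macrophage markers the level lay between 137 and 156 CPM (counts scaled to library size), most of it from *Cd68* and *Csf1r*, while *Adgre1*, *Itgam* and *Ptprc* had at most 6 counts in any library and *Lyz2* was at 0 in 3 libraries and at 11 counts in Itgb6-siRNA replicate 1. Summed endothelial markers lay between 2.78 and 4.31 CPM. The 6 fibroblast markers summed to 0 and 0.347 CPM in Scrambled and to 3.55 and 0.425 CPM in Itgb6-siRNA, with 22 *Col1a1* counts in Itgb6-siRNA replicate 1. Their part in the values below was not tested.

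*Gm49450* had 85.26 and 146.85 counts in Scrambled replicates 2 and 3 and 0 and 16.54 counts in Itgb6-siRNA replicates 1 and 3. Normalized to library size, these were 5.23, 8.503, 0 and 1.005 CPM. Both Scrambled libraries lay above both Itgb6-siRNA libraries, and within each group the replicates differed by more than 1 CPM. The mean was 6.87 ± 2.32 CPM (SD, n = 2) in Scrambled and 0.502 ± 0.710 CPM (SD, n = 2) in Itgb6-siRNA. The fit over all genes gave a log2 fold change of -3.68 ± 0.46 (SE, Itgb6-siRNA against Scrambled), and the means differed 13.7-fold. DESeq2 gave nearly the same size with a far larger error, -3.73 ± 2.30 (SE), and did not call the gene. Without Itgb6-siRNA replicate 1 the log2 fold change was -2.73, and without Scrambled replicate 2 or 3 it was -3.99 or -3.28.

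*Gm49450* was the only one of the 10 genes past the study's thresholds (p under 0.05 before adjustment, fold change above 1.2), and it was lower. These thresholds called 5.2% of all genes tested lower (610 genes) and 4.37% higher (512 genes). With Benjamini-Hochberg adjustment of the edgeR test in their place, 1 of the 10 genes, *Gm49450*, was lower and 0 were higher, where 2.52% and 2.11% of all genes tested were. None of the 9 tubulin genes (0) passed them in either direction, whether by edgeR or by DESeq2. Libraries of the groups did not overlap in CPM in 8 of the 10 genes, against 49.2% of all genes tested. Because the genes were taken with these differences known, nothing is read from the counts. *Gm49450* also passed the filter on low counts only with the help of its Scrambled libraries, as Itgb6-siRNA replicate 1 had 0 counts.

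*Gm49450* held 2.76% and 4.17% of the counts it formed with *Tuba1a* in Scrambled, and 0% and 0.476% in Itgb6-siRNA. Of the counts of *Gm49450*, *Tuba1a* and *Tuba1b* together it held 0.265%, 0.440%, 0% and 0.0538%. *Tuba1a* alone was 184 and 196 CPM in Scrambled and 211 and 210 CPM in Itgb6-siRNA, both Itgb6-siRNA libraries above both Scrambled libraries. With *Gm49450* added, the values were 189, 204, 211 and 211 CPM in the same order. The groups still did not overlap, and the log2 fold change of *Tuba1a* went from 0.15 ± 0.06 (SE) to 0.10 ± 0.06 (SE) when the whole table was refitted with the sum in its place. *Tuba1b* had -0.09 alone and -0.10 when *Gm49450* was added to it instead. All 3 together had 1976 and 1932 CPM in Scrambled and 1852 and 1868 CPM in Itgb6-siRNA, and the 4 libraries of the sum kept the order that *Tuba1b* sets. These sums were not whole, so a division of reads with other genes may still enter them. With *Tuba1c* also added, the values were 2113 and 2072 CPM in Scrambled and 1998 and 2010 CPM in Itgb6-siRNA.

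**Figure D2:**
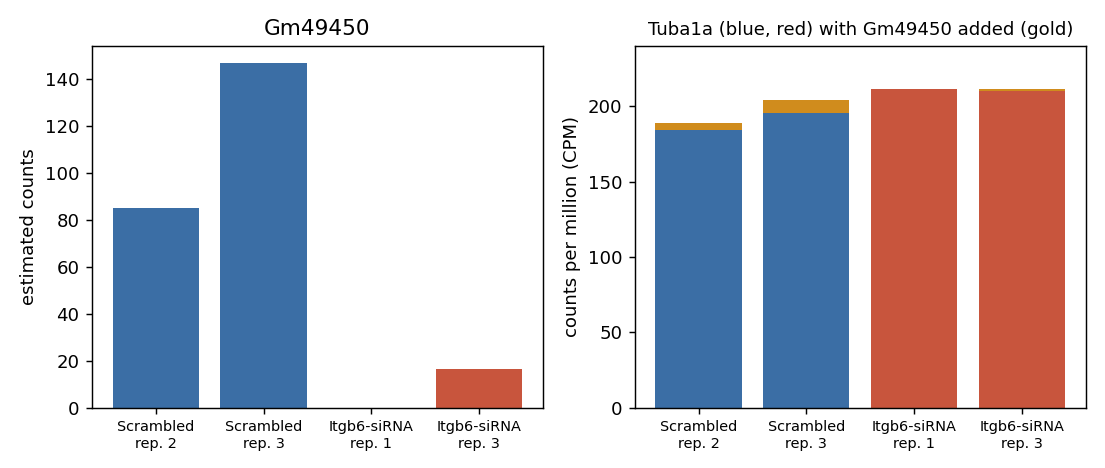
Left, estimated counts of *Gm49450* in each of the 4 libraries. Right, CPM of *Tuba1a* (blue, Scrambled; red, Itgb6-siRNA) with the CPM of *Gm49450* stacked on top in gold; the sum runs from 189 CPM in Scrambled replicate 2 to 211 CPM in both Itgb6-siRNA libraries.

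Of the alpha genes, *Tuba1b*, the ubiquitous isotype of dividing cells, had 1787 and 1728 CPM in Scrambled and 1641 and 1657 CPM in Itgb6-siRNA. Its libraries did not overlap, and its log2 fold change was -0.09 ± 0.04 (SE). In these cells, where bulk RNA was measured, fewer cells with a transcript and less of it per cell cannot be told apart. *Tuba1a*, the isotype best known from the developing brain, had a mean of 190 ± 8.19 CPM (SD, n = 2) in Scrambled and 211 ± 0.931 CPM (SD, n = 2) in Itgb6-siRNA. *Tuba4a*, the alpha gene whose tail is made without the terminal tyrosine, had 112 and 120 CPM in Scrambled and 133 and 130 CPM in Itgb6-siRNA. Its libraries did not overlap either, and its log2 fold change of 0.18 ± 0.06 (SE) was a 1.13-fold difference, more than in any other of the 9 tubulin genes. Its partner *Stk16* had 198.01, 231.01, 256.02 and 232.02 counts. *Tuba1c* (chr15:99029891-99038110, plus strand) had 137 and 140 CPM in Scrambled against 145 and 143 CPM in Itgb6-siRNA, without overlap but with a log2 fold change (0.057) smaller than its SE (0.062).

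The 4 alpha genes did not share a direction. *Tuba1b* lay below its Scrambled level while the other 3 lay above theirs, none of them by the fold of 1.2. Per length, *Tuba1b* stood at 10.1 and 9.14 times *Tuba1a* in Scrambled and at 8.03 and 8.16 times in Itgb6-siRNA (ratio of FPKM, fragments per kilobase scaled to library size). Summed over the 4 genes, the family had 2220 and 2184 CPM in Scrambled and 2130 and 2139 CPM in Itgb6-siRNA.

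Of the beta genes, *Tubb5*, the main isotype of proliferating cells, had 2308 and 2416 CPM in Scrambled and 2360 and 2333 CPM in Itgb6-siRNA. Both Itgb6-siRNA libraries lay between the Scrambled libraries, and the log2 fold change was -0.0097 ± 0.04 (SE). *Tubb4b*, the broadly expressed beta isotype that cilia use, had 448 and 485 CPM in Scrambled and 518 and 504 CPM in Itgb6-siRNA. Its libraries did not overlap, with a log2 fold change of 0.13 ± 0.05 (SE), which was 0.07 without Scrambled replicate 2 and 0.19 without Scrambled replicate 3. *Tubb6*, on chr18:67390717-67402749, had 323 and 336 CPM in Scrambled and 302 CPM in both Itgb6-siRNA libraries, with a log2 fold change of -0.13 ± 0.05 (SE). *Tubb5* (chr17:35833921-35838306), *Tubb4b* (chr2:25222160-25224702) and *Tubb6* had whole counts in every library, so for these 3 no division of reads with another gene was visible.

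*Tubb2b* (chr13:34126748-34130466) had 160 and 172 CPM in Scrambled and 174 and 193 CPM in Itgb6-siRNA. Its libraries lay close together but did not overlap, and the log2 fold change was 0.14 ± 0.06 (SE). It was 0.22 without Itgb6-siRNA replicate 1 and 0.07 without Itgb6-siRNA replicate 3. *Tubb2a* (chr13:34074274-34078007), its near copy, had 15.1 and 13.4 CPM in Scrambled and 15.02 and 13.3 CPM in Itgb6-siRNA. The groups overlapped, with a log2 fold change of -0.0053 ± 0.14 (SE). Summed, so that the division between the copies does not enter, the pair had 175 and 186 CPM in Scrambled and 189 and 207 CPM in Itgb6-siRNA, again without overlap. Over the 5 beta genes the sum was 3255 and 3423 CPM in Scrambled and 3369 and 3345 CPM in Itgb6-siRNA, and the Itgb6-siRNA libraries lay inside the Scrambled range.

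**Figure D3:**
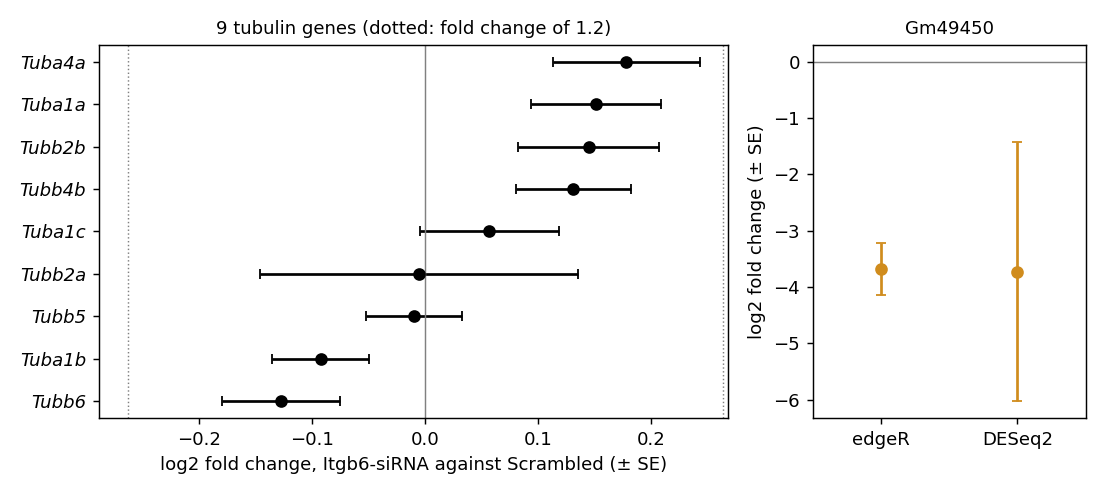
Left, log2 fold change of the 9 tubulin genes (Itgb6-siRNA against Scrambled, edgeR) with its SE as bars; the points run from -0.13 (*Tubb6*) to 0.18 (*Tuba4a*), inside the dotted lines of a 1.2-fold change. Right, the log2 fold change of *Gm49450* on its own axis, -3.68 ± 0.46 (SE) by edgeR and -3.73 ± 2.30 (SE) by DESeq2.

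Levels of the genes are compared per length, with the deposited FPKM values. *Tuba1b* was the most abundant, at 937 to 1031 FPKM over the 4 libraries, and *Tubb5* came next at 870 to 916 FPKM. *Tubb4b* followed at 282 to 325 FPKM, *Tubb6* at 169 to 192 FPKM and *Tuba1a* at 103 to 118 FPKM. Each of these lay above the next in every library and without overlap of the ranges. *Tubb2b* at 73.9 to 87.3 FPKM and *Tuba1c* at 69.5 to 73.6 FPKM kept their order without overlap, by a small margin. The ranges of *Tuba1c* and *Tuba4a* (59.3 to 70.6 FPKM) overlapped, although *Tuba1c* was higher within each library. *Tubb2a* at 8.18 to 9.43 FPKM and *Gm49450* at 0 to 9.49 FPKM overlapped and changed places: *Gm49450* was the higher in Scrambled replicate 3 and the lower in the other 3 libraries. As a scale, *Actb*, the cytoplasmic actin gene, had 1310 to 1469 FPKM. The length by which the authors divided was that of 1 transcript for 8 of these genes, such as 899 bases for *Gm49450* and 1803 for *Tuba1a*. For *Tuba4a* it moved between 1885 and 2026 bases from library to library, so its FPKM also carries that shift.

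**Figure D4:**
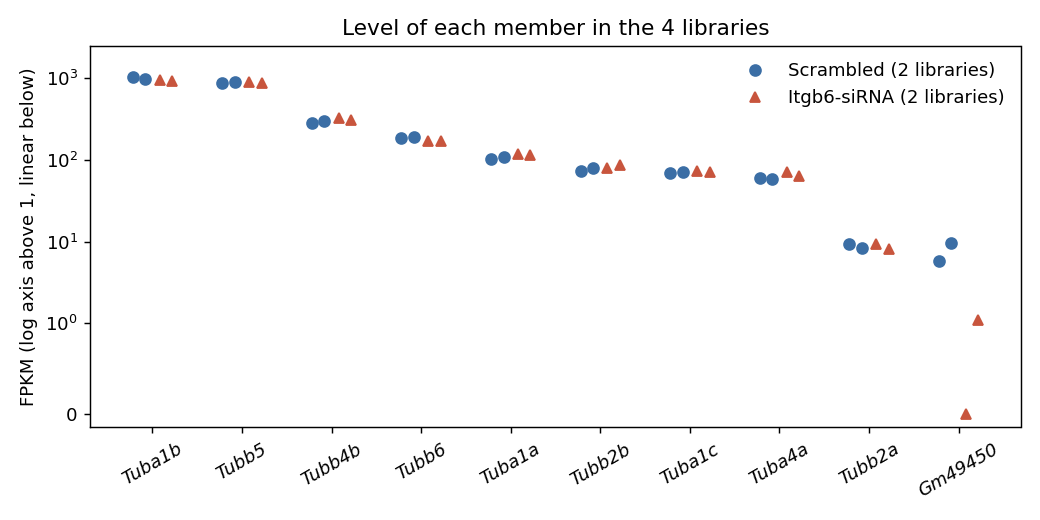
FPKM of each of the 10 genes in the 4 libraries (circles, Scrambled; triangles, Itgb6-siRNA), ordered by mean; the vertical axis is logarithmic above 1 and linear below. The tubulin genes span from 8.18 to 1031 FPKM with the groups close together, and *Gm49450* is the gene whose groups stand apart, at 5.85 and 9.49 against 0 and 1.102 FPKM.

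Within the alpha family, *Tuba1b* supplied 81.7% and 80.6% of the summed FPKM in Scrambled and 78.3% and 79.0% in Itgb6-siRNA. *Tuba1a* supplied 8.13% and 8.82% in Scrambled and 9.75% and 9.68% in Itgb6-siRNA. For neither gene did the shares of the groups overlap. *Tuba4a* supplied 4.72%, 4.81%, 5.85% and 5.40% in the same order of libraries, and *Tuba1c* between 5.51% and 6.10%. Within the beta family *Tubb5* supplied between 60.2% and 61.5%. *Tubb4b* supplied 19.8% and 20.3% in Scrambled and 21.9% and 21.5% in Itgb6-siRNA, and *Tubb6* 13.0% and 12.8% against 11.6% and 11.7%. Together the 9 genes took 0.541% to 0.562% of all counts. The ratio of summed alpha to summed beta FPKM was 0.885 and 0.822 in Scrambled and 0.814 and 0.821 in Itgb6-siRNA, and the groups were set apart by less than the gap between the Scrambled replicates.

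**Figure D5:**
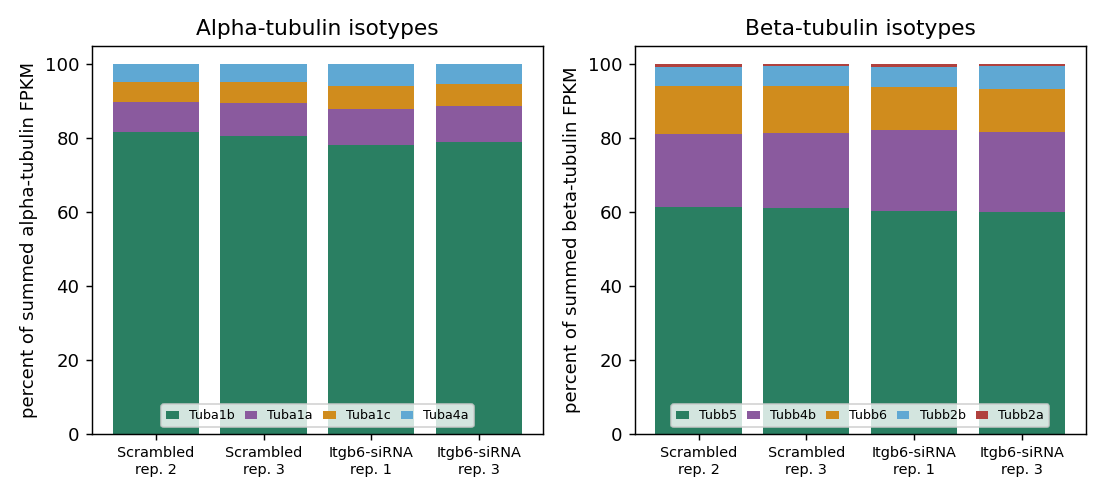
Share of each isotype in the summed FPKM of its family, as stacked bars for the 4 libraries (left, alpha; right, beta). *Tuba1b* holds 78.3% to 81.7% of alpha-tubulin and *Tubb5* 60.2% to 61.5% of beta-tubulin in every library.

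The rest of the tubulin pathway was read from lists of 92 listed genes, of which 78 were tested. By the study's thresholds 5 were lower and 2 higher, 8.97% of those tested against 9.57% of all genes tested, and their median log2 fold change was 0.04 against 0.00017 over all genes. With Benjamini-Hochberg adjustment of the edgeR test 2 of them were lower and 1 higher, where 4.62% of all genes tested passed. Among 11 other tubulins, 6 were tested. *Tubg1*, the gamma-tubulin that nucleates microtubules, had 3312.78 to 3978 counts and a log2 fold change of -0.07 (edgeR, adjusted p = 0.523). Its less abundant paralog *Tubg2* had 137 and 149 counts in Scrambled and 82.22 and 104 counts in Itgb6-siRNA. It was called lower at a log2 fold change of -0.55 ± 0.20 (SE), though its adjusted p was 0.106 (edgeR). *Tubb3*, the neuronal beta isotype, had 19, 18, 29 and 38 counts and was called higher at 0.92 ± 0.42 (SE; edgeR, adjusted p = 0.229), while *Tubb4a* (0.38), *Tubd1* (-0.26) and *Tube1* (-0.17) were not called. *Tuba3b* and *Tubal3* were at 0 in every library, and *Tuba3a*, *Tuba8* and *Tubb1* had at most 3 counts.

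Of the 9 tested components of the gamma-tubulin ring complex, 0 were called in either direction, where 9.57% of all genes tested were. The smallest p was that of *Tubgcp6* (log2 fold change -0.23, edgeR, adjusted p = 0.223). The 7 genes listed under tubulin folding cofactors also gave 0 calls, with *Tbcel* at -0.23 (edgeR, adjusted p = 0.222). The chaperonin CCT and prefoldin, which fold new tubulin and actin chains, gave 0 calls among 14 genes, of which 1 had a log2 fold change below 0. Their median was 0.08, where that of all genes tested was 0.00017, and a shared direction was not tested. *Pfdn4* had 0.25 ± 0.08 (SE; edgeR, adjusted p = 0.0697). The 3 genes of the decay of tubulin mRNA, *Ttc5*, *Scaper* and *Cnot11*, gave 0 calls, with *Scaper* at -0.19 (edgeR, adjusted p = 0.317).

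Of 16 tested tubulin-modifying enzymes 2 were called lower and 1 higher, where 5.2% and 4.37% of all genes tested were. With Benjamini-Hochberg adjustment of the edgeR test 1 of them was lower and 0 were higher. *Ttll12*, a member of the tubulin tyrosine ligase-like family, had 1357 and 1387 counts in Scrambled and 974 and 1047 counts in Itgb6-siRNA. Its log2 fold change was -0.37 ± 0.07 (SE; edgeR, adjusted p = 0.00228), and its groups did not overlap. Of 23 tested genes of microtubule binding and dynamics 2 were called lower and 0 higher, against the same shares of all genes tested. With adjustment 1 of them was lower and 1 higher. *Map7d1*, a microtubule-associated protein that recruits kinesin, had 2723 and 2473 counts in Scrambled and 1818 and 1888 counts in Itgb6-siRNA, a log2 fold change of -0.42 ± 0.07 (SE; edgeR, adjusted p = 0.000265). *Kif2a*, a kinesin that takes microtubules apart, had 0.26 ± 0.07 (SE; edgeR, adjusted p = 0.0355), under the fold of 1.2.

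The genes whose pattern over the 4 libraries lay nearest to that of *Gm49450*, by Euclidean distance of log2 CPM centred on each gene, were *B430305J03Rik*, *Pcdhgc4* and *Gm45140*. *B430305J03Rik* had 20.8 and 55.8 counts in Scrambled and 0 and 8.91 counts in Itgb6-siRNA, at a distance of 1.42. *Pcdhgc4* had 57.06, 53.39, 0 and 39.12 counts (distance 1.85), and *Gm45140* had 66.15, 114.73, 5.46 and 47.06 counts (distance 2). For the tubulin genes the 3 nearest genes lay at distances of 0.0037 to 0.0197. Such distances grow with the size of a gene's own changes, which were larger in *Gm49450*, so the values cannot be compared between them. *B430305J03Rik*, *Pcdhgc4* and *Gm45140* were all lowest in Itgb6-siRNA replicate 1, as *Gm49450* was, and the estimated counts of all 3 were not whole.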

How the data were processed

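RNA of 4 libraries was analysed, 2 Scrambled and 2 Itgb6-siRNA. Polyadenylated RNA had been sequenced in pairs of 150 bases without strand information. The authors deposited estimated counts per gene, not normalized, and FPKM values, scaled by them to transcript length and library size. The aligner, counting tool, build and annotation are not given in the sources used here. The methods mention a cluster analysis and an optimization of the samples analysed further, without saying what it did. The same values in the per-sample and the series tables were checked to be identical.

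Estimated counts were rounded and tested with edgeR 4.0.16 in R 4.3.3 (quasi-likelihood test, TMM factors, filterByExpr with a minimum count of 10 and a minimum total count of 15, Benjamini-Hochberg adjustment over 11727 genes). Called genes passed the study's thresholds, p under 0.05 before adjustment with a fold change above 1.2. CPM values are the estimated counts scaled to the total of the tested genes times its TMM factor. The common biological coefficient of variation was 0.0551. Totals were 16205217, 17220285, 15435087 and 16693525 counts. Replicates differed by a chi-square per gene of 3.15 (Scrambled) and 4.00 (Itgb6-siRNA), more than sampling noise. With 2 against 2, an exact two-sided permutation test cannot go below p = 0.333. The p-values cover the spread between these libraries. The test was first run on simulated data with known changes.

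Coordinates, sequences, exon overlaps and shared stretches (31 and 150 bases, either strand) were taken from GENCODE vM21 (GRCm38), which holds 99.6% of the identifiers. The transcript of each gene was its longest coding one with a CCDS entry, or else its longest. A sum of 2 genes was called whole within 0.015 of a whole number. The 10 genes and all lists were chosen with earlier results of these data known. Genes named besides them were *Itgb6*, *Actb*, other tubulins with a mean of at least 10 counts, up to 4 genes per list with an adjusted p under 0.05 or else the one with the smallest p, and the 3 nearest to *Gm49450* (prior count 2). *Stk16*, the marker genes and tubulins at or near 0 were named after their values were seen. Alternatives were DESeq2 1.42.0, RLE factors, library size only, other filters, removal of GC and length trends, rounding down, adjusted p-values, each library left out, *Gm49450* added to *Tuba1a* or *Tuba1b*, and FPKM with a pseudocount of 0.1. Some sequences of the alpha-tubulin genes are not reported here.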

Additional observations from a re-analysis of the deposited data

How the results depend on the processing

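No paired analysis was possible because the groups share only replicate number 3. Across all genes, DESeq2 called 383 lower and 320 higher, adjusted p-values 295 and 247, and leaving out 1 library 402 to 768 and 338 to 645, against 610 and 512; the fewest came without Scrambled replicate 2, and the cause was not tested. *Gm49450* stopped being called with DESeq2 (0 of the 10 genes lower) and could not be tested where 10 counts were required in every library (again 0). Its log2 fold change lay between -3.99 and -2.73, apart from -9.82 without Itgb6-siRNA replicate 3, which is no size because the remaining Itgb6-siRNA library had 0 counts. With GC and length trends removed it was -3.65, *Tuba1b* -0.03, *Tuba1c* 0.14 and *Tubb6* -0.05. The sign of *Tubb2a* and of *Tubb5* changed in 3 of 12 alternatives each, with values of 0.05 and 0.02 once these trends were removed, and that of the other 7 tubulin genes in 0. Of the pathway genes, 2 were lower with adjusted p-values instead of 5, and 0 were higher with DESeq2, 1 with library size only and 1 with adjusted p-values instead of 2. *Itgb6* ranged from -0.10 to 0.09 when 1 library was left out, with the sign reversed without Scrambled replicate 2 (0.038) and without Itgb6-siRNA replicate 3 (0.091). *Gm49450* had 0 to 146.85 counts per library, so its size is the least precise of the 10 by its SE.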

Other observations

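*Gm49450* is one of 129 listed genes whose exonic bases all lie in exons of other genes on the same strand (GENCODE vM21). In 61 of these the estimated count was not whole in at least 1 library, and among all 22063 listed genes in 2021. Of the 26 that were tested, 5 were called lower (19.2%) and 4 higher (15.4%), where 5.2% and 4.37% of all genes tested were. Their median absolute log2 fold change was 0.42, and that of all genes tested was 0.13. A fold change over 4 was found in 2 of the 26 and in 12 of all 11727 tested. The first of the 2 was *Gm49450*, which was chosen with its change known and is also among the 5 called lower. The other was *Gm45713*, singled out after its values were seen, with 11.35 and 20.1 counts in Scrambled and 0 in both Itgb6-siRNA libraries. *Gm45713* is also among the 5 called lower, and it passed the filter on low counts only through its Scrambled libraries. Nothing is therefore read from these 2 genes or from the share called lower that includes them. Counts of the tested nested genes ranged widely, up to 6798.75 for *Gm49909* in Scrambled replicate 3. The part of counts or of read division in these differences was not tested.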
